A study of Homo sapiens with 7 samples.

Results

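The genes described here carry the family names of the cell's own RNA-processing machinery, and the readout is how completely their introns had been removed from newly made RNA. The name alone decided membership, so the noncoding antisense gene HNRNPK-AS1 and the DNA helicase gene DDX11 are among them. Every intron in the deposited splice-junction table whose gene symbol begins with SRSF, HNRNP, SF3, SNRP, PRPF, RBM, DDX or DHX was taken. This gave 315 introns of 83 genes, out of 6709 introns of 2979 genes in the whole table. The HNRNP genes contributed 84 introns of 19 genes, DDX 54 of 16, SF3 45 of 7, RBM 45 of 12, DHX 32 of 7, PRPF 22 of 8, SRSF 20 of 8 and SNRP 13 of 6. Each intron carries a splice index, a fraction between 0 and 1 that the authors computed for each library. A value near 1 goes with removed introns and a value near 0 with introns still present.

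The study compared human RPE1 cells, an hTERT-immortalised line from retinal pigment epithelium, with and without CFAP20, a protein known from cilia. All libraries came from cells with inducible Cas9 (iCas9) and a double knockout of p53 and the puromycin resistance gene (p53/puro-dKO). The 3 WT libraries carry no further knockout, the 3 CFAP20-KO libraries lack CFAP20, and the 1 rescue library comes from CFAP20-KO cells expressing CFAP20-GFP. Nascent RNA was labelled for 30 min with 2 mM bromouridine (BrU), captured with an antibody to BrdU, and sequenced as paired 151-base reads (BrU-seq). The labels do not say whether libraries came from separate cultures or how many clones the knockout represents, and every p-value below therefore reflects the library-to-library spread alone, part of which may be technical.

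Introns are removed by the spliceosome, which is assembled from small nuclear ribonucleoproteins (snRNPs) and many further proteins, largely while RNA polymerase II is still transcribing. SNRP, SF3 and PRPF genes encode core parts of these particles. SRSF and HNRNP genes encode sequence-specific RNA-binding proteins that favour or disfavour the use of splice sites, many RBM genes encode further RNA-binding regulators, and DDX and DHX genes encode RNA helicases, some of which drive the remodelling steps of splicing. Many SR-protein and hnRNP genes are known to regulate their own messages through alternative exons or retained introns that send the transcript to decay. Splicing of these genes therefore belongs to the circuit that sets the level of the splicing machinery.

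A number in the column names of the splice table, whose meaning is not given, puts WT 1 with CFAP20-KO 1, WT 2 with the rescue, and WT 3 with CFAP20-KO 2 and 3. It is called the run here. Across these introns CFAP20-KO 2 and 3 resembled each other most among the pairs of the 6 WT and CFAP20-KO libraries (correlation of the index 0.956). CFAP20-KO 1 was more like WT 1 of its run (0.838) than like CFAP20-KO 2 (0.766) or 3 (0.783). In CFAP20-KO 1, 5 of these introns were listed at 0 and 6 at 1, against 3 to 4 at 0 and 0 to 2 at 1 in each of the other libraries. The table gives no read number per intron, so the precision of a single value is unknown. In the matching tables of nascent coverage, introns with a low index had more signal relative to the exons of their gene (rank correlation of -0.254 to -0.381 in the 6 WT and CFAP20-KO libraries, over 535 introns of 261 genes). Genes were not independent replicates in that check, and only 16 of those introns belonged to the RNA-processing genes, too few to read a direction for them alone. Among lineage markers in the coverage tables, RLBP1 and TTR of the retinal pigment epithelium lay at 0.0166 to 0.357 and at 0 in 5 of 6 libraries. The mesenchymal markers FBN1 and LAMB1 differed between the groups in opposite directions: FBN1 lay at 5.33 to 8.62 in WT and 11.8 to 16.5 in CFAP20-KO, and LAMB1 at 8.81 to 9.57 and 3.26 to 4.35. Of the neuronal markers, MAP2 was lower in all 3 CFAP20-KO libraries, at 0.430 to 0.878 against up to 2.41 in WT, and SYT1 overlapped, at 1.81 to 3.98 and 0.996 to 3.31. The part of these differences in the results below was not tested.

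The sequences of a few introns are shown first: introns at the high end of the index, the shortest intron, and introns whose group differences are described further on. The introns with the lowest index are not among them. Whole introns are written 5′ to 3′ on the transcribed strand, read from hg38, with the first and last bases of the intron (GT and AG) in capitals. SF3A2 intron 8 (chr19:2247663-2247766, + strand) and HNRNPA3 intron 9 (chr2:177219160-177219246, + strand) had the highest index of their families. DHX30 intron 17 (chr3:47848551-47848623, + strand) was the shortest intron. HNRNPA1 intron 4 (chr12:54282301-54282393, + strand) lay higher, and RBMX intron 7 (chrX:136875169-136875257, - strand) lower, in all 3 CFAP20-KO libraries than in all 3 WT libraries. DHX16 intron 2 (chr6:30670953-30671035, - strand) was the single intron to pass in an alternative fit. HNRNPA1 intron 4 and DHX16 intron 2 were chosen after their values were seen. All 6 lie between coding exons, and intron numbers here and below are those of the transcript that the table lists.
SF3A2 intron 8: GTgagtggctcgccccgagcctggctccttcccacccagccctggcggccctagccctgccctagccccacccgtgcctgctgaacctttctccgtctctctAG
HNRNPA3 intron 9: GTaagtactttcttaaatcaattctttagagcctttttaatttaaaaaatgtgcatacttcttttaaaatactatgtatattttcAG
DHX30 intron 17: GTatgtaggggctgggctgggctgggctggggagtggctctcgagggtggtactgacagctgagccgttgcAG
HNRNPA1 intron 4: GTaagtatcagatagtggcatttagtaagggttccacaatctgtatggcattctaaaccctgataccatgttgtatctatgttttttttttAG
RBMX intron 7: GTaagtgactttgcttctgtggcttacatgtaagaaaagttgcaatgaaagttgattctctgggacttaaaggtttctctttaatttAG
DHX16 intron 2: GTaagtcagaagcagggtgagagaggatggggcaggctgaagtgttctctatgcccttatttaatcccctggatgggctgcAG

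SF3A2 encodes a subunit of the SF3a complex of the U2 snRNP, and HNRNPA3 an RNA-binding protein of the hnRNP A/B group. Their 2 introns are of nearly the same length, 104 and 87 bases, and reached mean indices over the 7 libraries of 0.981 and 0.970. Their base composition lies at opposite ends: G and C make up 69.2% of the SF3A2 intron and 21.8% of the HNRNPA3 intron. DHX30 intron 17, with 73 bases and 65.8% G and C, had a mean index of 0.350.

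The other introns that the results turn on are longer, and the splice sites alone are shown for them, to let a reader compare them with the short introns above. The first run holds the last 3 bases of the exon and the first 6 of the intron, and the second holds the last 20 bases of the intron and the first 3 of the exon, with the GT and AG (or GC and AG) in capitals. SF3B2 intron 7 (chr11:66057376-66058053, + strand) and PRPF6 intron 11 (chr20:64011504-64016722, + strand) had the largest positive differences among introns whose WT and CFAP20-KO values do not overlap. SF3B3 intron 8 (chr16:70539208-70541668, + strand) and DHX37 intron 1 (chr12:124986266-124988916, - strand) had the largest negative differences among these. SRSF3 intron 3 (chr6:36598527-36598848, + strand) is the single intron of the set without GT at its start.
SF3B2 intron 7, 5′ site: gagGTgaga
SF3B2 intron 7, 3′ site: tgactgggtgtctctggcAGatg
PRPF6 intron 11, 5′ site: cagGTgggc
PRPF6 intron 11, 3′ site: gttttgtgttcctctttcAGgat
SF3B3 intron 8, 5′ site: ccaGTgagt
SF3B3 intron 8, 3′ site: tctcctctgcttcttcccAGtta
DHX37 intron 1, 5′ site: aggGTaaga
DHX37 intron 1, 3′ site: taataactgtgctctctcAGaca
SRSF3 intron 3, 5′ site: cagGCatgt
SRSF3 intron 3, 3′ site: taatatctttgccccctcAGaac

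In base composition and splice-site letters the 315 introns lay apart from the other 6394 in some measures, none of them tested. The start GTAAGT stood in 51 of them (16.2%, against 10.4% of the rest), an end in CAG in 62.5% against 69.5%, and an end in TAG in 34% against 25.3%. Their median G and C content was 43.7% against 49.8%, and their median length 666 against 711 bases. The start TATCCTT, searched on the transcribed strand, of minor, U12-type introns was found in 1 of them (0.317%) and in 10 of the rest (0.156%). That one is intron 7 of HNRNPM, an RNA-binding splicing regulator (chr19:8466389-8467534, + strand), and it was chosen after its value was seen. It was among the more completely spliced introns, with indices of 0.857, 0.893 and 0.924 in WT, 0.919, 0.958 and 0.962 in CFAP20-KO and 0.950 in the rescue. Minor-type introns are known for slow removal. The lowest value, in WT 1, was above the HNRNP median of that library, and the lowest CFAP20-KO value lay within WT.

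The table covers part of each gene. For 82 of the 83 genes the MANE Select transcript, the reference transcript agreed by RefSeq and Ensembl, could be read from GENCODE 44. These transcripts have 1015 introns, of which 271 (26.7%) were in the table. A further 44 introns belong to other transcripts. For 22 genes a single intron was present, and 27 genes had at least 5. How the authors selected introns is not stated in the sources used here.

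Introns of RNA-processing genes had a high index in every library. The median over the introns was 0.688, 0.760 and 0.750 in WT 1, 2 and 3, against 0.520, 0.687 and 0.632 for the rest of the table. In CFAP20-KO 1, 2 and 3 it was 0.645, 0.814 and 0.789, against 0.5, 0.694 and 0.667, and in the rescue 0.812 against 0.718. The members lay above the rest in all 7 libraries. Over the 7 libraries the median of the mean index was 0.749 for these introns, with quartiles at 0.580 and 0.830, and 0.632 for the rest, and 65.3% of the rest lay below 0.749. The share of introns at 0.9 or above was similar, 8.89% against 9.54%. The difference lay at the lower end: 11 introns (3.49%) had a mean index under 0.2, against 15.4% of the rest, and all 11 were outside the MANE Select transcripts. The sets also differed in make-up. First introns were 16.51% of the members and 25.99% of the rest, and 271 of 315 members were in MANE Select, against 4821 of 6394. First introns and introns outside MANE Select had lower indices in both sets, as described below. The part of this make-up in the difference was not tested.

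The 8 families were not alike. HNRNP introns had the highest family median in all 7 libraries, from 0.769 in WT 1 to 0.889 in CFAP20-KO 2. Over the 7 libraries their median was 0.826 (quartiles 0.696 and 0.892). SF3 followed at 0.775 (0.665 and 0.897), then DHX at 0.759, RBM at 0.729, PRPF at 0.724, DDX at 0.702, SNRP at 0.681 and SRSF at 0.629 (0.361 and 0.738). Neighbours in this order overlapped over their introns, and from SF3 down the order changed between libraries. SRSF was not the lowest family throughout: in CFAP20-KO 1 SNRP lay at 0.525 and DDX at 0.540, below SRSF at 0.545. Of the 28 introns with a mean index of at least 0.9, 16 were in HNRNP genes and 9 in SF3 genes.

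**Figure D1:**
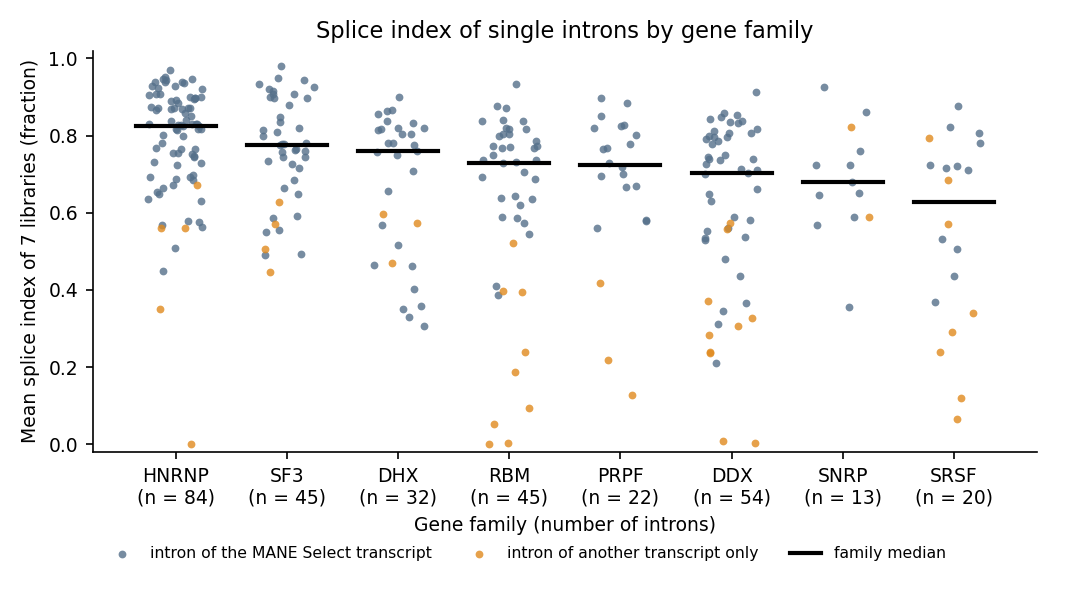
Mean splice index over the 7 libraries (vertical axis, fraction from 0 to 1) for each of the 315 introns, by family; blue points are introns of MANE Select transcripts, orange points introns of other transcripts only, and bars are family medians. HNRNP has the highest median, 0.826, and all 11 points under 0.2 are orange.

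The low place of the SRSF family came with its share of introns outside the reference transcript. Of its 20 introns 8 were not in MANE Select, with a median of 0.316, and the other 12 had a median of 0.719. Over all families the median was 0.773 for introns of MANE Select transcripts and 0.361 for the others, against 0.715 and 0.231 in the rest of the table. In MANE Select introns the order ran from HNRNP at 0.830 (79 introns) and SF3 at 0.780 (41) over DHX at 0.775, PRPF at 0.765, RBM at 0.759, DDX at 0.737 and SRSF at 0.719 to SNRP at 0.681 (11). The spread between family medians was thus narrower within reference transcripts, and HNRNP stayed highest.

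Several of the non-reference introns are the junctions of transcripts annotated for nonsense-mediated decay, the class through which SR-protein genes are known to limit their own expression. The 12 introns of such transcripts had a median index of 0.363. SRSF4, an SR-family splicing factor, had the lowest intron of its family here: intron 3 of a decay transcript (chr1:29166065-29166728, - strand) had a mean of 0.0663 over the 7 libraries. The other decay introns of SRSF genes, described after their values were seen, lay at means of 0.121 in SRSF6, 0.290 in SRSF1, 0.572 in SRSF3, and 0.239 and 0.686 in SRSF7. A low index was thus not shared by all of them, and the 1 decay intron of HNRNPA1 also lay high, at 0.672. For SRSF7 intron 2 of the decay transcript (chr2:38747131-38748046, - strand) the indices were 0.219, 0.193 and 0.176 in WT, 0.326, 0.248 and 0.261 in CFAP20-KO and 0.246 in the rescue. The 3 CFAP20-KO values lay above the 3 WT values, by 0.0825 on average. The SRSF3 intron with the GC start, also of a decay transcript, had indices of 0.561, 0.461 and 0.528 in WT, 0.639, 0.552 and 0.572 in CFAP20-KO and 0.691 in the rescue, and the lowest CFAP20-KO value lay below the highest WT value.

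Outside MANE Select, a junction that the cells rarely use and an intron that stays in the RNA cannot be told apart by the index. The lowest mean of the HNRNP family belonged to intron 1 of HNRNPK-AS1 (chr9:83972278-83975432, + strand), at 0.000282. This antisense transcript overlaps HNRNPK, which encodes a poly(C)-binding hnRNP protein and whose own 12 introns lay between 0.576 and 0.897. The sources used here do not say whether strand entered the index, so reads of the 2 genes may be mixed. In the RBM family intron 1 of a non-reference transcript of RBM14, an RNA-binding coactivator, was at 0 in all 7 libraries (chr11:66619505-66620845, + strand).

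The index was lower in early introns. First introns had a median of 0.561 (52 introns), introns 2 to 5 a median of 0.734 (126) and introns 6 and later 0.799 (137). In the rest of the table the steps were larger: 0.341, 0.651 and 0.791. In MANE Select introns alone the members' medians were 0.705, 0.764 and 0.801, against 0.537, 0.704 and 0.797 for the rest. The advantage of RNA-processing genes therefore lay in first introns and introns 2 to 5, and the introns from 6 on were close to the rest. Across introns the rank correlation of number with mean index was 0.31 for the members and 0.48 for the rest, and within MANE Select 0.15 and 0.33. Introns of 1 gene share a transcript and libraries, so these correlations describe the table and have no test.

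Over all members, length went less with the index than number did. The median was 0.765 for the 197 introns under 1 kb, 0.731 for the 107 introns from 1 to under 5 kb, and 0.753 for the 11 introns of 5 kb and over. In the rest of the table it was 0.639, 0.626 and 0.619. The rank correlation of length with index was -0.14 for the members and -0.02 for the rest. Within MANE Select it was -0.138 for the members, close in size to the 0.153 of number there. Among first introns the median rose with length class, with 0.535 under 1 kb (19 introns), 0.568 from 1 to under 5 kb (28) and 0.628 at 5 kb and over (5). The longest intron, intron 2 of HNRNPD (chr4:82359640-82371527, - strand, 11888 bases), which encodes the AU-rich element binding protein AUF1, was well spliced. Its indices were 0.723, 0.743 and 0.789 in WT, 0.875, 0.904 and 0.844 in CFAP20-KO and 0.850 in the rescue. G and C content had a rank correlation of -0.18 with the mean index. Within MANE Select it was -0.21, further from 0 than that of number. It varied by library: over the members it was -0.285 in WT 1 and -0.292 in CFAP20-KO 1, which share a run. In WT 2 it was -0.00376, and in the other libraries -0.0854 to -0.122. The pyrimidine share before the 3′ site had a rank correlation of -0.01, and the match of the 5′ site to its common letters 0.01.

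**Figure D2:**
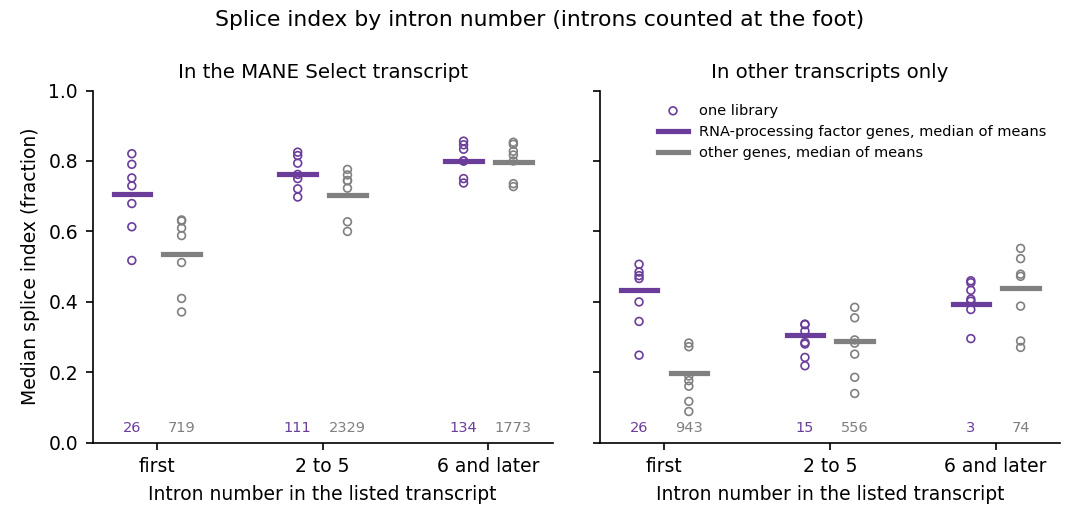
Median splice index (vertical axis, fraction) by intron number (horizontal axis), for MANE Select introns (left) and introns of other transcripts only (right), in RNA-processing genes (purple) and other genes (grey); each circle is the median in 1 library, each bar the median of the introns' means over the libraries, and the numbers at the foot count introns. In MANE Select the members stand at 0.705 and the other genes at 0.537 for first introns, and at 0.801 and 0.797 from intron 6 on.

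DHX30, a helicase known for mitochondrial RNA and ribosome assembly, had low indices. Its shortest intron, the 73-base intron 17 printed above, had indices of 0.357, 0.348 and 0.132 in WT, 0.410, 0.476 and 0.343 in CFAP20-KO and 0.387 in the rescue. The WT 3 value was the lowest and the groups overlapped. All 8 of its introns in the table lay between 0.307 and 0.709 in mean index, with a median of 0.380, below the DHX median of 0.759. The lowest in the DHX family was also in DHX30, intron 6 with 1546 bases, at 0.307.

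In the other families the highest introns were these. Intron 1 of RBM8A, the Y14 subunit of the exon junction complex, had a mean index of 0.933, and intron 2 of SNRPD1, a core Sm protein, 0.926. Intron 4 of DDX23, the helicase of the U5 particle that releases U1 from the 5′ site, stood at 0.912. Intron 9 of DHX9, the RNA helicase A, stood at 0.899 and intron 2 of PRPF8, the central scaffold of the spliceosome, at 0.898. In the SRSF family the reference intron 2 of SRSF7 was highest, at 0.877. The lowest of the SNRP family was intron 6 of SNRPB, a Sm protein, at 0.356, and the lowest in the SF3 family was a non-reference intron 1 of SF3B3 at 0.447.

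Within a gene single introns could lie far apart. The 5 genes with the widest spread among at least 3 introns were DDX39A, an export helicase, with a span of 0.734 between its lowest and highest mean index, DDX11, a DNA helicase, with 0.717, RBM5, a splicing regulator, with 0.681, PRPF19, the ubiquitin ligase of the spliceosome, with 0.674, and SRSF4 with 0.657. In each of the 5 the lowest intron lay outside the MANE Select transcript. For PRPF19 that intron (chr11:60903862-60905364, - strand) was at 0.0312 to 0.305 over the 7 libraries. DDX11 has a near-identical duplicated copy in the genome, and how reads shared between copies were counted is not given.

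CFAP20-KO was then compared with WT. In the fit over all 6537 introns with a value in all 6 libraries (limma, Benjamini-Hochberg), 0 introns passed an adjusted p of 0.05 (0%), and 0 of the 311 introns of RNA-processing genes. The smallest adjusted p over the table was 0.833. At an unadjusted p under 0.05 stood 373 introns of the table (5.71%) and 21 of the 311 (6.75%). Of these 21, 18 were higher in CFAP20-KO (5.79%, against 3.58% of the table) and 3 lower (0.965%, against 2.13%). The count of 21 was 51 without CFAP20-KO 1, 10 without CFAP20-KO 3, 8 without WT 1 and 5 without CFAP20-KO 2. CFAP20-KO 2 and 3 share a run and resembled each other most. With both averaged into 1 library, the count was 5 of the 311, and 188 in the table. With all 6 libraries, the total of 21 is close to the background and the split between directions is more uneven than in the table, without a test of that split.

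The median of the 315 introns did not separate the groups. Averaged over libraries the value for WT was 0.733 ± 0.039 (SD, n = 3), and for CFAP20-KO 0.749 ± 0.091 (SD, n = 3), a difference of 0.017, smaller than either spread. CFAP20-KO 1 was the lowest of all 6 libraries and CFAP20-KO 2 and 3 the highest. Without CFAP20-KO 1 the difference was 0.069, and without WT 2 or WT 3 it was 0.031 or 0.025. It turned to -0.015 without CFAP20-KO 2, to -0.0032 without CFAP20-KO 3 and to -0.0058 without WT 1. Within runs it was -0.042 for CFAP20-KO 1 against WT 1 and 0.051 for the mean of CFAP20-KO 2 and 3 against WT 3. The sign thus depended on the libraries compared.

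**Figure D3:**
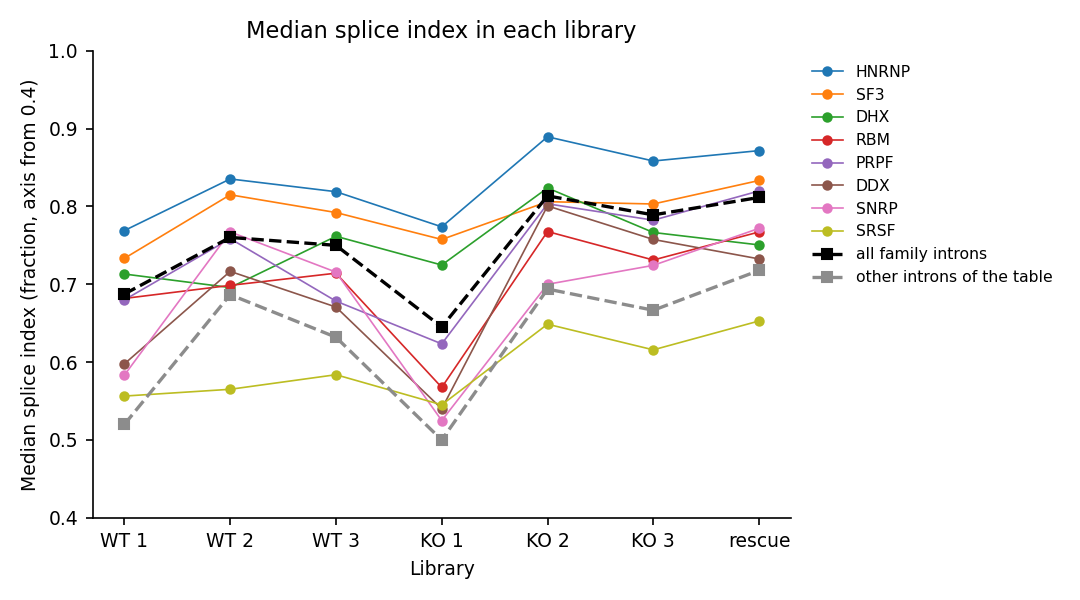
Median splice index of the introns (vertical axis, fraction) in each of the 7 libraries (horizontal axis), by family (coloured points), for all introns of RNA-processing genes (black squares) and for the rest of the table (grey squares); KO stands for CFAP20-KO, lines only join the points of a set, and the axis starts at 0.4. CFAP20-KO 1 lies low, at 0.645 for all members, and CFAP20-KO 2, CFAP20-KO 3 and the rescue lie high, at 0.814, 0.789 and 0.812.

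Counted intron by intron within a run, 144 of 315 introns (45.7%) were higher in CFAP20-KO 1 than in WT 1, against 42.8% of the rest. In CFAP20-KO 2 73.7% were higher than in WT 3 (rest 60.0%), in CFAP20-KO 3 66.7% (rest 56.9%), and in the rescue 70.9% were higher than in WT 2 (rest 57.0%). The share for the rescue thus lay between those for CFAP20-KO 2 and 3. Of 312 introns with the needed values, 104 (33.3%) were higher in all 3 CFAP20-KO libraries than in the WT library of their run, against 27% of all introns, and 50 (16.0%) were lower in all 3, against 18.3%. These libraries share controls, WT 3 serving for CFAP20-KO 2 and 3.

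The families took different parts in this. HNRNP introns were higher in CFAP20-KO 2 than in WT 3 in 67 of 84 cases and in CFAP20-KO 1 than in WT 1 in 41 of 84. For DDX, CFAP20-KO 2 was higher in 43 of 53. RBM introns turned most between runs, with 33 of 45 higher in CFAP20-KO 2 and 11 of 45 higher in CFAP20-KO 1. SNRP introns were higher in CFAP20-KO 2 in 4 of 13. The difference between the mean of the CFAP20-KO medians and that of the WT medians ran from 0.048 for DHX, 0.038 for DDX, 0.035 for SRSF, 0.033 for HNRNP and 0.031 for PRPF over 0.009 for SF3 and -0.009 for RBM to -0.039 for SNRP. Whether families differed from one another in this difference was not tested.

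SF3A3, a subunit of the SF3a complex, shows how far the CFAP20-KO libraries could lie apart, and was chosen after its values were seen. Its intron 3 (chr1:37987679-37987783, - strand) had indices of 0.339, 0.531 and 0.365 in WT, 0.0909, 0.793 and 0.789 in CFAP20-KO, and 0.521 in the rescue. CFAP20-KO 1 was the lowest and CFAP20-KO 2 and 3 the highest of all libraries. The neighbouring intron 2 had the same order, at 0.486, 0.818 and 0.642 in WT and 0.227, 0.901 and 0.905 in CFAP20-KO.

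For 44 of the 311 introns (14.1%) the 3 CFAP20-KO values and the 3 WT values did not overlap, against 11.1% of the table. In 32 (10.3%, against 5.92%) the CFAP20-KO values lay above, and in 12 (3.86%, against 5.14%) below. By family the introns above and below were 11 and 3 in HNRNP, 5 and 3 in SF3, 5 and 1 in SRSF, 5 and 0 in DDX, 3 and 2 in DHX, 2 and 0 in PRPF, 1 and 2 in RBM and 0 and 1 in SNRP. The 8 with the largest differences in each direction among these 44 are described here by role, and none passed the adjusted p. Their standard errors are from the same limma fit.

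Among the core splicing factors, SF3B2, a subunit of the SF3b complex that holds the branch site, had the largest positive difference. SF3B2 intron 7 had indices of 0.526, 0.609 and 0.750 in WT, 0.758, 0.962 and 0.927 in CFAP20-KO and 0.674 in the rescue. The lowest CFAP20-KO library was just above the highest WT library, and the rescue lay within WT. The difference was 0.254 (SE 0.0835, limma adjusted p 0.853). PRPF6 intron 11, of the bridging protein of the tri-snRNP, had indices of 0.778, 0.583 and 0.800 in WT, 1, 0.893 and 0.892 in CFAP20-KO and 0.822 in the rescue. The groups were apart by 0.208 on average (SE 0.0696), with the rescue between them. PRPF38B intron 6 (chr1:108698828-108699161, + strand), of a splicing factor of the PRP38 family, had indices of 0.686, 0.759 and 0.643 in WT, 0.833, 0.867 and 0.829 in CFAP20-KO and 0.737 in the rescue, which lay on the WT side.

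In the other direction stood SF3B3, another SF3b subunit. SF3B3 intron 8 had indices of 0.632, 0.522 and 0.538 in WT, 0.125, 0.474 and 0.473 in CFAP20-KO and 0.692 in the rescue. CFAP20-KO 1 was far below the other 5 libraries, while CFAP20-KO 2 and 3 were close under WT, and the difference of -0.207 (SE 0.113) was -0.0904 without CFAP20-KO 1. SF3B3 intron 18 (chr16:70564051-70565064, + strand) was more even, at 0.789, 0.852 and 0.786 in WT, 0.688, 0.667 and 0.709 in CFAP20-KO and 0.872 in the rescue. SNRPA intron 5 (chr19:40763676-40765007, + strand), of the A protein of the U1 snRNP, had indices of 0.789, 0.814 and 0.846 in WT, 0.5, 0.698 and 0.708 in CFAP20-KO and 0.717 in the rescue. The difference was -0.181 (SE 0.0729), or -0.113 without CFAP20-KO 1, and the rescue lay between the groups.

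Among the splicing regulators, SRSF11, an SR-related protein, had its introns 2 and 3 on the higher side. SRSF11 intron 3 (chr1:70235551-70237424, + strand) had indices of 0.552, 0.676 and 0.672 in WT, 0.769, 0.878 and 0.816 in CFAP20-KO and 0.649 in the rescue, a difference of 0.188 (SE 0.0633) with the rescue in the range of WT. On the lower side were SRSF3, the smallest SR protein, at intron 1 of a non-reference transcript (chr6:36594756-36596760, + strand), HNRNPUL1, an RNA-binding protein related to HNRNPU, at intron 12 (chr19:41302950-41303971, + strand), and RBMX, the X-linked hnRNP G, at intron 7. SRSF3 had indices of 0.828, 0.804 and 0.822 in WT, 0.711, 0.764 and 0.789 in CFAP20-KO and 0.836 in the rescue. HNRNPUL1 had indices of 0.833, 0.878 and 0.833 in WT, 0.560, 0.818 and 0.786 in CFAP20-KO and 0.885 in the rescue. RBMX had indices of 0.820, 0.802 and 0.770 in WT, 0.654, 0.748 and 0.754 in CFAP20-KO and 0.829 in the rescue. In all 3 genes the rescue stood above every WT library, and CFAP20-KO 1 was the lowest library. Without it the differences of -0.0635, -0.127 and -0.0789 were -0.0418, -0.0463 and -0.0466. RBMX has intronless copies elsewhere in the genome, which could take exon reads.

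Among the helicases, those known from ribosome assembly in the nucleolus were on both sides. DDX21 intron 3 (chr10:68962158-68963290, + strand) had indices of 0.489, 0.473 and 0.5 in WT, 0.519, 0.744 and 0.776 in CFAP20-KO and 0.617 in the rescue. Its WT libraries were within 0.027 of each other, and CFAP20-KO 1 lay close to them. DDX56 intron 6 (chr7:44570878-44571491, - strand) had indices of 0.213, 0.363 and 0.313 in WT, 0.385, 0.557 and 0.444 in CFAP20-KO and 0.286 in the rescue. DDX27 intron 3 (chr20:49223017-49223267, + strand) had indices of 0.688, 0.721 and 0.708 in WT, 0.828, 0.904 and 0.838 in CFAP20-KO and 0.814 in the rescue. DDX27 had the most even libraries of the 3 genes, with a difference of 0.151 (SE 0.0473, limma adjusted p 0.833). DHX37 intron 1, of a helicase of small-subunit maturation, lay the other way, at 0.586, 0.551 and 0.476 in WT, 0.333, 0.273 and 0.419 in CFAP20-KO and 0.619 in the rescue. All 3 CFAP20-KO libraries were below WT, by 0.196 on average, and the rescue was above WT.

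The remaining helicases were DHX9, which unwinds double-stranded RNA and RNA-DNA hybrids, and DHX15, which takes the spliceosome apart. DHX9 intron 22 (chr1:182880609-182881263, + strand) had indices of 0.560, 0.736 and 0.781 in WT, 1, 0.823 and 0.810 in CFAP20-KO and 0.924 in the rescue. CFAP20-KO 1 stood at the end of the scale and WT 1 lowest, and the difference of 0.185 was 0.119 without WT 1. DHX15 intron 2 of a non-reference transcript (chr4:24576679-24580719, - strand) had indices of 0.707, 0.653 and 0.625 in WT, 0.483, 0.561 and 0.596 in CFAP20-KO and 0.558 in the rescue. The rescue lay among the CFAP20-KO values there.

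**Figure D4:**
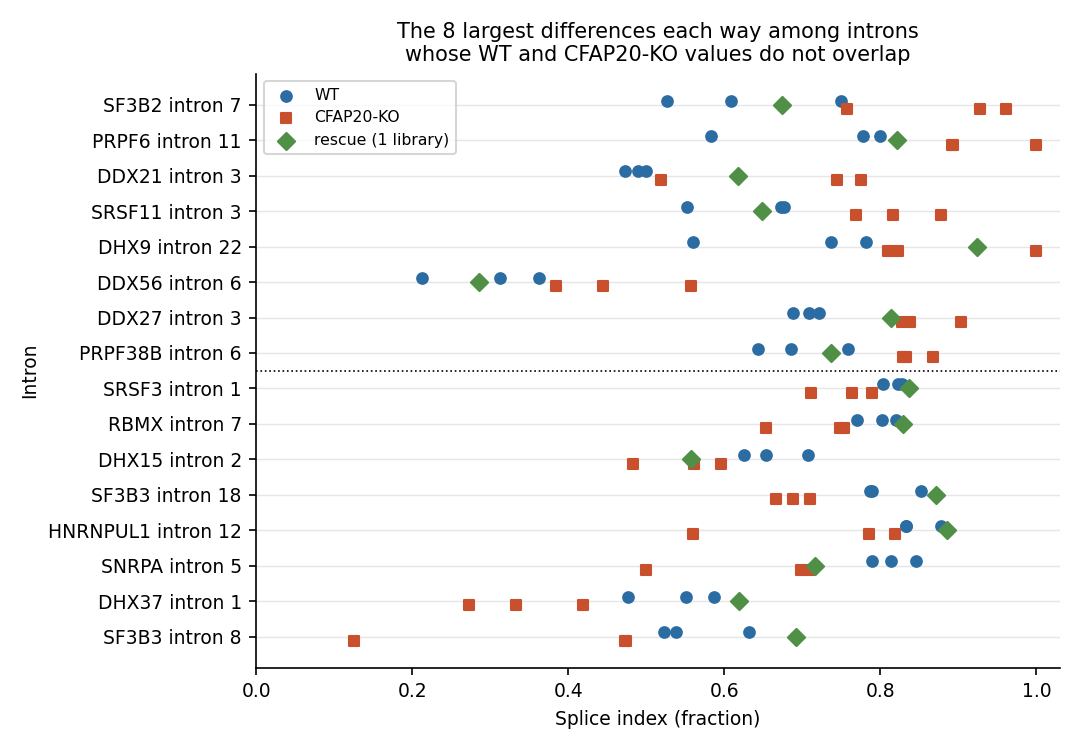
Splice index (horizontal axis, fraction) for the 16 introns (vertical axis) with the largest differences among those whose WT and CFAP20-KO values do not overlap, higher in CFAP20-KO above the dotted line and lower below it; each point is 1 library, WT blue, CFAP20-KO red and rescue green. For SF3B2 intron 7 WT spans 0.526 to 0.750 and CFAP20-KO 0.758 to 0.962, and for SF3B3 intron 8 CFAP20-KO 1 stands alone at 0.125.

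The single rescue library tended to lie on the side of the higher group, whichever group that was. Of the 32 introns with CFAP20-KO above WT, the rescue was at or above the lowest CFAP20-KO library in 17, in the range of WT or below in 7 and between in 8. Of the 12 with CFAP20-KO below WT it lay on the WT side in 8, on the CFAP20-KO side in 2 and between in 2. The same held in the whole table, where the rescue was on the WT side for 19.5% of introns above and for 73.7% of introns below. The rescue had the second highest median of the 7 libraries, 0.812, and 1 library allows no test.

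The differences that were largest against their error lay in HNRNPA1 and SF3B2, named here after their values were seen. HNRNPA1, among the most abundant nuclear RNA-binding proteins, had at intron 4 indices of 0.831, 0.842 and 0.826 in WT, 0.943, 0.973 and 0.947 in CFAP20-KO and 0.938 in the rescue. The spread within each group was small against the difference of 0.121 (SE 0.0253), yet the limma adjusted p was 0.833. SF3B2 intron 10 (chr11:66059046-66059200, + strand) had indices of 0.789, 0.841 and 0.851 in WT, 0.931, 0.988 and 0.989 in CFAP20-KO and 0.972 in the rescue. In HNRNPA2B1, a close relative of HNRNPA1, introns 5, 6 and 7 differed by 0.122, 0.109 and 0.132. Intron 6 (chr7:26196482-26196556, - strand) had indices of 0.746, 0.865 and 0.852 in WT, 0.918, 0.947 and 0.925 in CFAP20-KO and 0.939 in the rescue. The rescue was in the CFAP20-KO range in SF3B2 and HNRNPA2B1, and just under it in HNRNPA1. HNRNPA1 has many intronless processed copies, and the way such reads were counted is not given.

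Gene by gene, of 31 genes with at least 4 complete introns 7 had a higher CFAP20-KO mean at every intron (22.6%, against 20% of such genes in the table): DDX24, HNRNPA1, HNRNPA2B1, HNRNPAB, HNRNPDL, SF3B2 and SRSF6. HNRNPL had a lower mean at every intron, 1 of 31 (3.23%, against 13.7%). Among the 27 genes with at least 5 complete introns the shares were 25.9% higher throughout (17.3% of such genes in the table) and 0% lower throughout (11.4%). The first share with 4 introns is near that of all genes and the share of genes lower throughout is below it, and neither difference was tested. SF3B2 and SF3B3, partners in the SF3b complex, had their named introns on opposite sides. Of the 13 SF3B3 introns, however, 9 were lower and 4 higher in CFAP20-KO. The SF3B3 introns whose groups do not overlap were 2 lower and 1 higher.

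**Figure D5:**
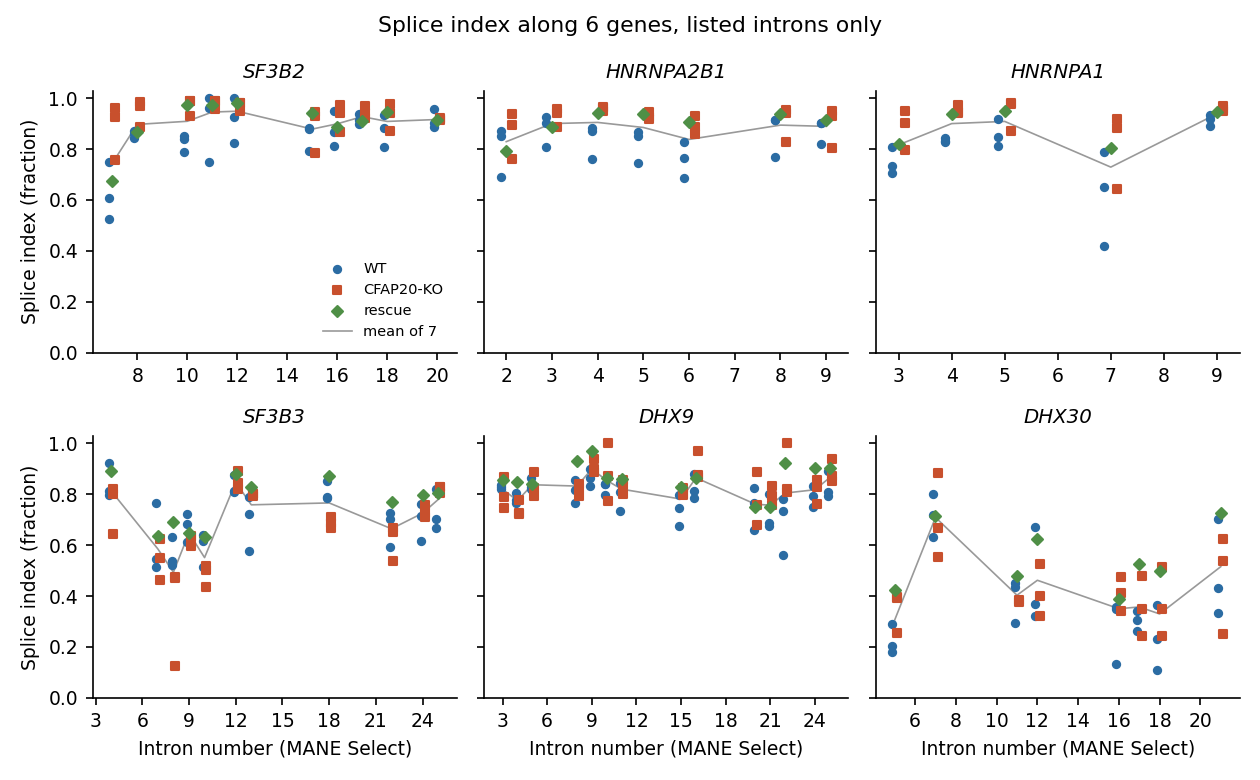
Splice index (vertical axis, fraction) along 6 genes by intron number in the MANE Select transcript (horizontal axis), for the introns in the table; each point is 1 library, WT blue, CFAP20-KO red and rescue green, and the grey line is the mean of the 7 libraries. SF3B2 intron 7 has the lowest WT points of its gene, CFAP20-KO 1 stands alone at 0.125 in SF3B3 intron 8, and the 8 DHX30 introns have means from 0.307 to 0.709.

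DHX16, the helicase that activates the spliceosome, was the single gene of the set to pass in an alternative fit, which blocks on the replicate number and centres each library on its median. Same-numbered libraries deviated together (correlations 0.508, 0.207 and 0.214 over the table). WT 3 with CFAP20-KO 2 (0.250) and WT 2 with CFAP20-KO 3 (0.219) did so as much, so numbers 2 and 3 mark no specific pairs. This blocked and centred fit called 34 introns of the table (0.52%), 17 in each direction. DHX16 intron 2 had indices of 0.5, 0.711 and 0.800 in WT, 0.795, 0.99 and 0.962 in CFAP20-KO and 0.869 in the rescue. The groups overlapped, since CFAP20-KO 1 was just below WT 3, but each CFAP20-KO library was above the WT library of its number. The blocked difference was 0.237 (SE 0.0584, limma adjusted p 0.0388), against 0.245 (SE 0.0924, adjusted p 0.853) with neither block nor centring. The block alone gave a limma adjusted p of 0.41 and centring alone 0.446, so it passed only with both among these fits. With the run as a covariate instead, and centring, the limma adjusted p was 0.0738. In that fit WT 2 is alone in its run, since the rescue is left out, and adds nothing to the difference.

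Nascent transcription of these genes was measured apart from splicing, in the deposited windows around replication origins. The measure was mean coverage over the gene body, or over the part of it inside a window. Such windows held 18 genes with a family name, 9 of them also in the splice table. Among 1917 genes tested (limma on log2 of signal plus a pseudocount of 0.0623), 0 passed an adjusted p of 0.05 (0%), and 0 of the 18. The smallest adjusted p was 0.102 in the table and 0.465 among the 18. At an unadjusted p under 0.05 stood 168 genes (8.76%) and 1 of the 18. Groups did not overlap for 344 genes (17.9%) and for 3 of the 18, which were DDX50, DDX59 and RBM17.

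RBM17, the splicing factor SPF45, was the gene at an unadjusted p under 0.05. Its mean signal per 200-bp bin was 3.55, 4.24 and 5.68 in WT and 6.19, 9.65 and 9.20 in CFAP20-KO. All 3 CFAP20-KO libraries lay above WT, with a log2 difference of 0.89 (SE 0.307, limma adjusted p 0.465). With the run as a covariate the limma adjusted p was 0.0322, in a fit that called 10.9% of the genes, and with a replicate block it was 0.0308, in a fit that called 6.78%. DDX3X, a helicase of translation initiation, and SRSF10, an SR-like protein, had the highest levels. DDX3X stood at 34.8, 34 and 45.1 in WT and 23.0, 42.4 and 40.3 in CFAP20-KO, and SRSF10 at 30.0, 42.8 and 42.1 and 22.5, 43.8 and 44.7. CFAP20-KO 1 was the lowest library for both, and the groups overlapped. PRPF40B, a U1-associated splicing factor, was lowest, at 0.475 to 0.647 in WT and 0.583 to 0.871 in CFAP20-KO.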

How the data were processed

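Introns were read from the splice table, in which the authors deposited a splice index as a fraction from 0 to 1 per library. The sources used here state neither its formula nor its depth. Gene body signal was the mean coverage per 200-bp bin in the tables that the authors deposited, for GENCODE 44 protein-coding genes over 3 kb with no coding neighbour on their strand within 2 kb. Long genes were read from their start up to a set length, and some values cover only the part of a gene inside a window. The submitters' processing notes name hg38 and, in no stated order, STAR 2.7.7a, SAMtools 1.11, HOMER 4.8.2, R 4.0.5, FastQC 0.11.9 and Trim Galore 0.6.5. Blank lines of the splice table (18446) were dropped.

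CFAP20-KO was compared with WT by limma 3.58.1 (R 4.3.3, statmod 1.5.0, trend and robust), on the index itself or on log2(signal + 0.0623), with Benjamini-Hochberg adjustment over the whole table. Log2 differences of low genes are understated by the pseudocount. The fit was tested on simulated data. Same-numbered libraries correlated at 0.508, 0.207 and 0.214 in their deviations from group means of the index, and a block on the number was fitted as an alternative. The numbers were not specific, however: WT 3 with CFAP20-KO 2 gave 0.250 and WT 2 with CFAP20-KO 3 gave 0.219. Run and number coincide for pairs 1 and 3. With the run as a covariate, WT 2 is alone in its run and adds nothing to the difference. The rescue has 1 library and no test.

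Named were the 8 introns with the largest difference in each direction among those whose groups do not overlap, the highest and lowest of each family, the 5 genes of widest spread, the longest and shortest intron, introns without GT and AG ends, and the 3 largest of the other splicing genes. Members and lists were chosen with earlier results of these data known. CFAP20 itself was not analysed here. Splice sites and intron sequences came from hg38, in which 98.5% of the table's introns begin with GT and end with AG.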

Additional observations from a re-analysis of the deposited data

How the results depend on the processing

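A limma fit with a replicate block on libraries centred on their medians called 34 introns of the table and 1 of the RNA-processing genes. With the run as a covariate and centring it called 60 introns, none in these genes. The block without centring called 0, and the blocked fit changed no other call among the named introns. Leaving out 1 library called 0 introns each time. The difference of medians ran from -0.015 to 0.069 over these left-out libraries. For gene body signal, same-numbered libraries correlated at 0.83, 0.57 and 0.04, and WT 2 with CFAP20-KO 3 at 0.65. There the block called 130 genes (1 of the 18, RBM17) and the run as a covariate 209 (1 of the 18). Dropping the filter on low signal called 6. The cause of these moves was not tested. Introns of these genes at an unadjusted p under 0.05 numbered 51 without CFAP20-KO 1 and 5 without CFAP20-KO 2, against 21. They also numbered 5 with CFAP20-KO 2 and 3 averaged into 1 library. For the 16 named introns all 238 values under other settings stayed above the threshold of 0.05. All 238 also kept their direction, but these introns were chosen because their groups do not overlap. Leaving out a library cannot reverse such a difference, so the kept direction is no sign of stability. Depth per intron is unknown.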

Other observations

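Splicing and RNA-processing genes outside the 8 name families gave a second view. Of a list of 127 such genes, 56 had 174 introns in the table. Their median index was 0.725 and the median difference between CFAP20-KO and WT was 0.008. Of 171 complete introns 0 passed in the limma fit, 8 (4.68%, against 3.58% of the table) stood at an unadjusted p under 0.05 with higher and 5 (2.92%, against 2.13%) with lower CFAP20-KO values. Groups did not overlap for 15 in each direction (8.77%, against 5.92% above and 5.14% below in the table). The difference of these splits from those of the family names was not tested.

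Among those introns whose groups do not overlap, the largest differences belonged to CPSF7, ACIN1 and USP39, and each rested in part on 1 library. CPSF7 encodes a subunit of cleavage factor Im, which acts at the 3′ end of messages. Its intron 8 had indices of 0.750, 0.690 and 0.772 in WT, 0.267, 0.629 and 0.581 in CFAP20-KO and 0.591 in the rescue, and the difference of -0.245 was -0.133 without CFAP20-KO 1. USP39, a tri-snRNP protein, had at intron 5 indices of 0.432, 0.427 and 0.5 in WT, 0.0851, 0.280 and 0.333 in CFAP20-KO and 0.511 in the rescue, a difference of -0.220, or -0.147 without CFAP20-KO 1. ACIN1, a protein of the exon junction complex periphery, lay the other way at intron 3, with 0.421, 0.396 and 0.432 in WT, 0.480, 0.792 and 0.642 in CFAP20-KO and 0.522 in the rescue, a difference of 0.222, or 0.145 without CFAP20-KO 2. The limma adjusted p was 0.853 for all 3.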
